A study of Mus musculus with 7 samples.

Results

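The mitochondrial ribosomal proteins are the nuclear-encoded building blocks of the ribosome that works inside mitochondria. Their genes were followed here in Mex3a-reporter-positive cells of mouse colon adenomas, labelled WT or KO for Mex3a. Members were all probe sets that the platform annotation pairs with a single gene symbol beginning with Mrpl or Mrps and a digit. That gave 129 probe sets of 73 genes, among 45141 probe sets and 17097 named genes on the array. Of the 73 genes, 46 carried symbols of the large subunit (Mrpl) and 27 of the small subunit (Mrps). Among the 27 was Mrps36, whose protein is now counted with the oxoglutarate dehydrogenase complex. It stayed in the subunit counts but was kept apart where members are grouped by origin. RefSeq (GRCm38.p6) lists 78 protein-coding genes with such symbols. Mrpl22, Mrpl45, Mrpl51, Mrps18c and Mrps28 were not analysed here.

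Gene expression was measured on 7 Affymetrix arrays, 4 labelled WT and 3 labelled KO for Mex3a, which encodes an RNA-binding protein of intestinal stem and progenitor cells. Per the series' design, the animals were Mex3a tom/flox (KO) or Tom/+ (WT), so that the WT animals also carried a Tomato allele, and all groups shared Villin CreERT2 and APC fl/+. All were given tamoxifen 4 times and then 2% dextran sulfate sodium (DSS), a polymer that injures the colon lining, for 5 days, and colonic adenomas were taken 2 months later. Villin CreERT2 recombines in gut epithelium and the Tomato signal reports the Mex3a promoter, so the sort was aimed at epithelial cells with an active Mex3a promoter. RNA came from 2000 sorted Epcam-positive, Tomato-positive cells and was amplified over 24 cycles. Scan batch 1 held WT replicates 1 and 2 and KO replicate 1; scan batch 2 held WT replicates 3 and 4 and KO replicates 2 and 3. Whether the arrays came from different animals is not labelled, and the p-values below reflect variation among these arrays alone, part of which can be technical. In sorted bulk RNA, fewer cells of a type and less RNA per cell cannot be told apart.

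Mitochondria keep a small genome that encodes core subunits of the respiratory chain, and the mitochondrial ribosome translates those messages. Its proteins are made in the cytosol from nuclear genes and imported. Some descend from proteins of the bacterial ribosome, while others were added in the mitochondrial lineage; the intestinal epithelium needs the respiratory chain as its cells leave the crypt and differentiate.

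As a check of the labels, Mex3a read 7.41, 7.38, 7.50 and 7.01 on the log2 scale in the WT arrays, against 6.18, 6.29 and 6.07 for KO. All KO arrays lay below all WT arrays, with a difference of -1.13 (SE 0.13; limma, adjusted p = 0.142) and a two-sided exact permutation p of 0.0286, the smallest that 35 splits of 7 arrays allow. Permutation tests here and below ignore scan batch, unlike the limma fit. The other Mex3a probe set differed by -0.60 (SE 0.15), with means of 6.61 in WT and 5.97 in KO. Its KO arrays also lay below all its WT arrays. Array medians over all probe sets lay between 5.96 and 6.00, while the spread of levels over all probe sets was narrowest in WT replicate 4 (SD 1.84, against 1.87 to 1.91 in the others). Epcam, the sort marker, stood at 11.94 in both group means. Of 10 leukocyte markers listed 9 were on the array and 5 passed the level filter of 5.28 (Lyz2, Csf1r, Cd68, Cd79a and Cd3g), while Ptprc, which marks all leukocytes, stood below it at 4.07 in WT and 4.16 in KO. Lyz2, a lysozyme of myeloid cells, stood at 12.03 in WT and 12.45 in KO, a difference of 0.39 (SE 0.15; limma, unadjusted p = 0.030). All its KO arrays lay above all its WT arrays, as was seen for 2.68% of all genes. Cd3g also read higher in KO, by 0.072 (SE 0.064). Cd79a, Csf1r and Cd68 went the other way, at -0.12 (SE 0.08), -0.12 (SE 0.08) and -0.038 (SE 0.17). The mean of the 5 ran from -0.107 to 0.032 in WT and from -0.052 to 0.101 in KO, relative to each gene's mean. The mean of the 3 fibroblast markers tested of 6 listed was high in WT replicate 3 and KO replicate 2, at 0.90 and 0.88 above their average, and between -0.55 and -0.15 in the other arrays. Among them Col3a1, a fibrillar collagen, read 8.26 and 8.37 in those arrays and 5.48 to 6.32 in the rest. Markers of epithelial cell types varied too, relative to each gene's mean. The mean of 4 goblet cell markers tested ran from -0.83 in WT replicate 1 to 0.52 in KO replicate 3. That of 6 colonocyte markers ran from -0.41 in WT replicate 1 to 0.82 in KO replicate 2. That of 4 stem cell markers ran from -0.13 in KO replicate 2 to 0.20 in WT replicate 1. Their median KO minus WT differences were 0.23, 0.18 and -0.068. The part of any of these cells in the results on mitochondrial ribosomal proteins was not tested.

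Promoters are shown for 4 members on which the comparisons turn: Mrps14, which had the smallest p of all members, Mrpl35 and Mrpl33, which also read higher in KO, and Mrps16, the lower-reading member of smallest p. Each window runs from 250 bases before to 50 bases after the annotated start, in the direction of the gene, from RefSeq on GRCm38.p6. Capitals mark letters of motifs searched on both strands: CCGGAAG for ETS factors such as GABP, GCGCATGCG and the looser GCGCATG for NRF1, AAGATGGCG and the looser AAGATGGC for YY1, and the E-box CACGTG that MYC can bind. The longer NRF1 and YY1 motifs contain their looser forms. Mrps14 lies at chr1:160194965-160195264 on the plus strand, Mrpl35 at chr6:71823735-71824034 on the minus strand, Mrpl33 at chr5:31613701-31614000 on the plus strand and Mrps16 at chr14:20393441-20393740 on the minus strand.
Mrps14: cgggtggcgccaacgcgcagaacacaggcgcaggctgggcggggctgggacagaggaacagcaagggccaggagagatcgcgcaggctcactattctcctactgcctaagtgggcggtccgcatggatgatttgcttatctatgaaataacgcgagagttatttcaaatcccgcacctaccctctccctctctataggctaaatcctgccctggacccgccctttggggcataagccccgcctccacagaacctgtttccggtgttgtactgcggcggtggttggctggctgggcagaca
Mrpl35: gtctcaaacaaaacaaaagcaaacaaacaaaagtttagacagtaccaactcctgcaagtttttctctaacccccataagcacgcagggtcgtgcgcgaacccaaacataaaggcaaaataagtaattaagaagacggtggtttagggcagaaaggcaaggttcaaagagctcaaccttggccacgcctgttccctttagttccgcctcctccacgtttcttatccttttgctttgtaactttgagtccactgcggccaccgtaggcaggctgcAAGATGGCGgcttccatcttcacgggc
Mrpl33: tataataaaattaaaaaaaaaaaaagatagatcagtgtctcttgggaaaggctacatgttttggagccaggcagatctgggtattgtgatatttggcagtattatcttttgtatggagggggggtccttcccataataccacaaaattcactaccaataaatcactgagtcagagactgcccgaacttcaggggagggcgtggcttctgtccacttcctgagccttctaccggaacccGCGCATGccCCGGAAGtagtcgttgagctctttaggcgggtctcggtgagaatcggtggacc
Mrps16: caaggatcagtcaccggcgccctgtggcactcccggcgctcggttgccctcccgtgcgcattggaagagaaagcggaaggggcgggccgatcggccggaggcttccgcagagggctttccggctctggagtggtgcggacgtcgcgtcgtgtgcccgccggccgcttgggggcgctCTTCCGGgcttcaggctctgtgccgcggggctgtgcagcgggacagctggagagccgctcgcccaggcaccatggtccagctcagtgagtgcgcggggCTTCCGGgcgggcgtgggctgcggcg
The Mrps14 window held none of the motifs, that of Mrpl35 held a YY1 motif near the start site, that of Mrpl33 the looser NRF1 motif and an ETS motif, and that of Mrps16 a pair of ETS motifs in reverse orientation. A second annotated start of Mrps16 had none of them in its window. The window of Mrpl50, the large-subunit member of smallest p, is not shown and also held none of the motifs. A match describes these letters only.

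Across the family, ETS and YY1 motifs were common. Of the 73 members, 65 matched the promoter table, with 71 windows. The ETS motif stood in 23 of them (32.4%, Wilson 95% interval 22.7 to 43.9%), against 15.4% of 13089 windows of all genes tested on the array and 8.86% of all 32851 windows. The YY1 motif stood in 8 (11.3%), against 2.62% of windows of tested genes and 1.40% of all, and the NRF1 motif in 6 (8.45%), against 3.09% and 1.75%. The looser forms stood in 12 windows for YY1 (16.9%, against 3.98% of tested genes and 2.75% of all) and 7 for NRF1 (9.86%, against 6.10% and 3.91%). For the E-box, at 6 windows (8.45%), the share was below the 9.47% of windows of tested genes and above the 7.15% of all windows. These 6 windows belonged to 4 of the 65 genes, so windows of the same gene were counted more than once. The 23 members with an ETS motif had a median KO minus WT difference of 0.035 and the 42 without it one of 0.027; the 8 with a YY1 motif had -0.038 and the 57 without it 0.047.

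No mitochondrial ribosomal protein gene passed the test between KO and WT. In the limma fit with scan batch, over 12822 genes, 0 of the 73 members had a Benjamini-Hochberg adjusted p under 0.05, and neither did any other gene (0%). In the probe set used for each gene differences were small. There 37 members lay within 0.1 of 0 on the log2 scale and 5 differed by 1.2-fold or more, with 1.28-fold the largest. The largest among probe sets not used were 0.62 (SE 0.21) for Mrpl44 and 0.43 (SE 0.12) for Mrpl3. Those used for these genes gave 0.053 (SE 0.10) and 0.15 (SE 0.13). The median difference over the members was 0.032, against -0.019 over all genes tested, with a median SE of 0.098. It was 0.034 in the large subunit and 0.031 in the small. A positive difference was seen in 42 members (57.5%), 27 of 46 in the large and 15 of 27 in the small subunit, where 43.9% of all genes tested had one. At an unadjusted p under 0.05, 7 members were higher in KO (9.59%, against 7.14% of all genes) and 0 lower (against 4.26%). With 1 array left out, the count higher was 3 without WT replicate 1, WT replicate 3, WT replicate 4, KO replicate 2 or KO replicate 3. It was 11 when WT replicate 2 and 18 when KO replicate 1 was left out. Leaving out KO replicate 1 leaves scan batch 1 with WT arrays only, so the differences then are those of scan batch 2 alone. Over all genes the share moved as well, to 11.1% without WT replicate 2, against 15.1% of members, and to 13.4% without KO replicate 1, against 24.7% of members. In the other 5 settings it was 3.37 to 5.86%, against 4.11% of members. Without WT replicate 4 the median over the members was -0.005.

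**Figure D1:**
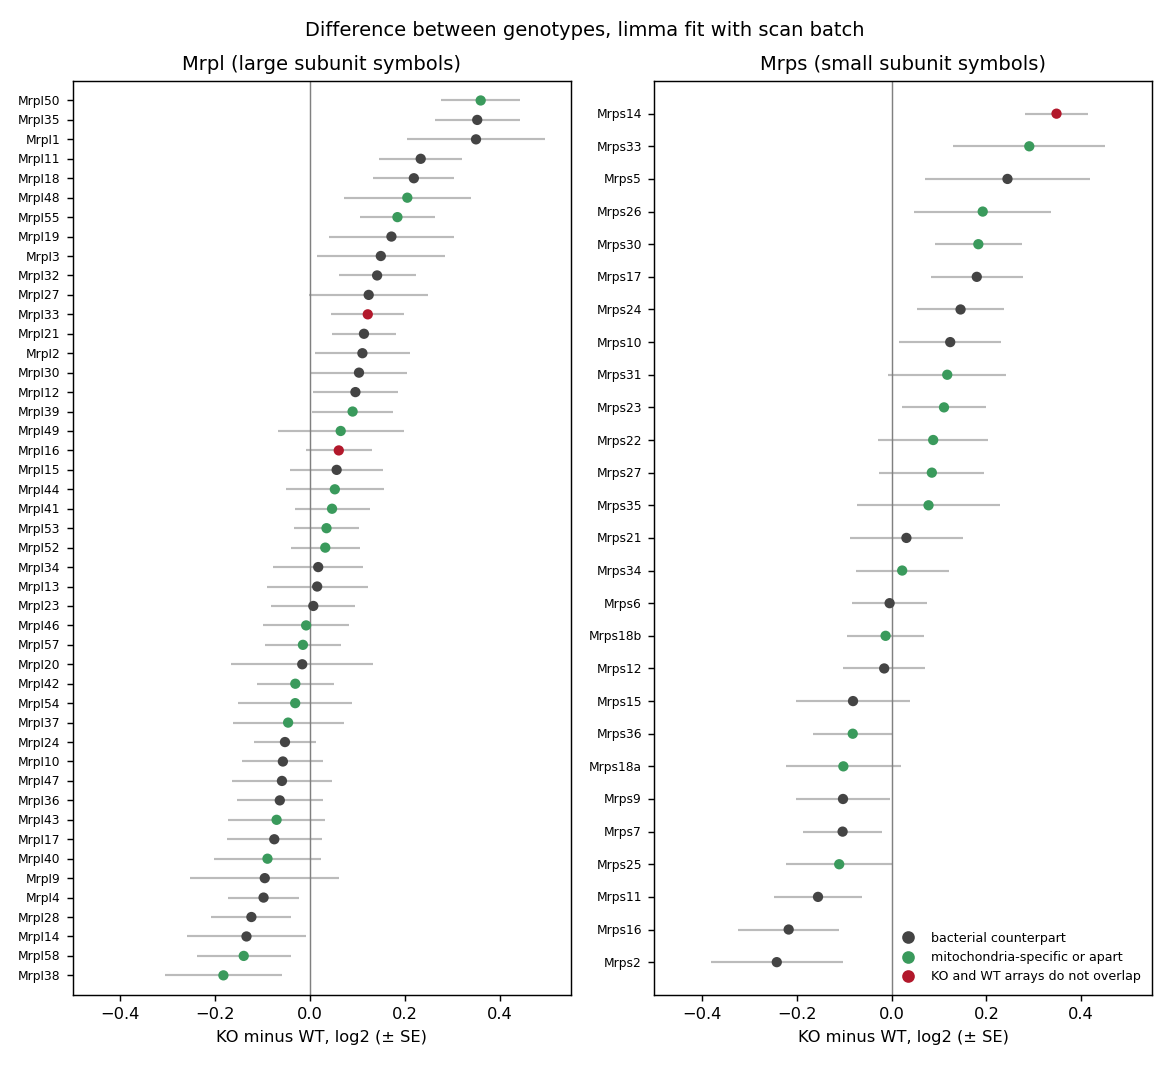
KO minus WT difference on the log2 scale (horizontal axis, points with SE bars, 4 WT and 3 KO arrays) of all 46 Mrpl genes on the left and 27 Mrps genes on the right, ordered by size. Dark points were counted here as having a bacterial counterpart and green points as mitochondria-specific or, for Mrps36, kept apart. Of 73 points 37 lie within 0.1 of 0, and 3 genes, in red, have KO arrays that do not overlap the WT arrays.

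Relative to each gene's mean over the 7 arrays, the mean of the 73 members was 0.049, 0.042, -0.028 and -0.123 in WT replicates 1 to 4 and -0.024, 0.029 and 0.055 in KO replicates 1 to 3. WT replicate 4 stood lowest and the group ranges overlapped. For 27 members WT replicate 4 was the lowest of all arrays and for 17 it was KO replicate 1, whereas WT replicate 4 was the highest for 0. In WT replicate 4 only 13 of 73 members lay above their own mean, and in KO replicate 1 only 30, against 47 to 49 in WT replicates 1 and 2 and KO replicates 2 and 3. WT replicate 4 stood lowest in each subunit, at -0.128 for the large and -0.115 for the small, while KO replicate 3 was at 0.049 and 0.064. The median SD within groups was 0.133 for the members, the same as over all genes tested (0.133). Mrpl1 spanned the widest range over the arrays, 0.757, and Mrps6 the narrowest, 0.123. Array-wide measures moved too: the difference between 3' and 5' Gapdh control probe sets, 1 measure of RNA integrity, was -0.131, -0.209, -0.121 and -0.121 in WT, against -0.154, -0.213 and -0.239 in KO. With it as a covariate the members' median was -0.022, with 28 of 73 positive. The same difference for the actin control was -0.485, -0.429, -0.497 and -0.448 in WT, against -0.301, -0.515 and -0.446 in KO, so that the controls did not order the arrays alike. Actin was not used as a covariate, and the part of RNA integrity in the result was not tested.

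**Figure D2:**
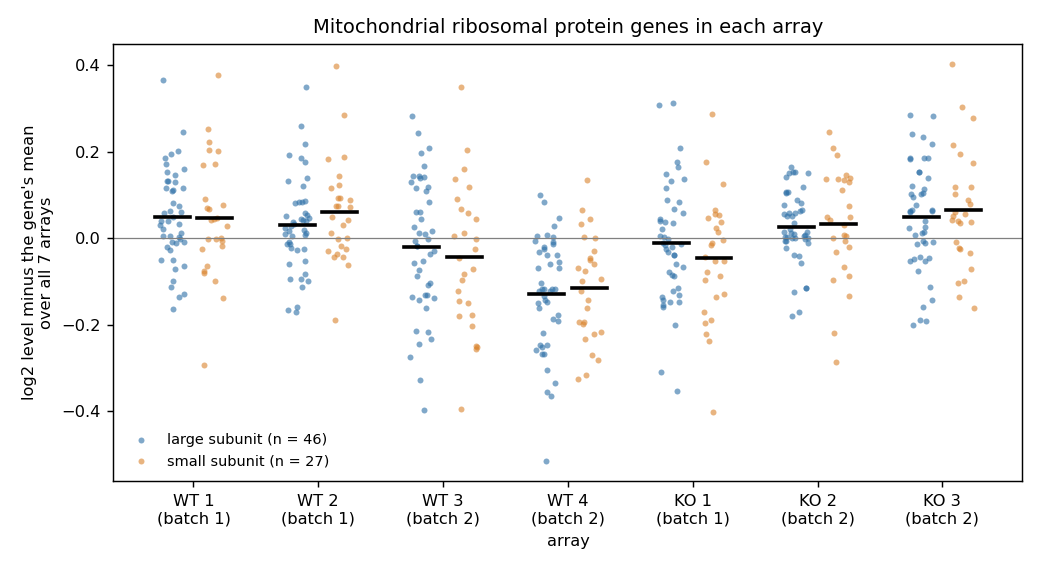
Each point is 1 gene in 1 array, as its log2 level minus the mean of that gene over all 7 arrays (vertical axis), with large-subunit genes in blue, small-subunit genes in orange and black bars at the means. WT replicate 4 holds the lowest means (-0.128 and -0.115) and KO replicate 3 means of 0.049 and 0.064.

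The members' median difference had opposite signs in the scan batches. Over the 1 KO and 2 WT arrays of scan batch 1 the members' median was -0.094 and 24 of 73 were positive, against a median of -0.020 over all genes. Over the 2 arrays of each genotype in scan batch 2 it was 0.147 and 53 of 73 were positive, against -0.016 over all genes. In that batch 18 members were higher at an unadjusted p under 0.05 (limma, 24.7%, against 15.3% of all genes) and 4 lower (5.48%, against 9.05%), and 0 passed after adjustment. A negative difference in scan batch 1 with a positive one in scan batch 2 was found for 38 members (52.1%), against 26.1% of all genes. Both batches were positive for 15 members (20.5%, against 20.4%) and negative for 11 (15.1%, against 29.5%). The difference was larger in scan batch 2 for 58 members (79.5%, against 53.7% of all genes), by a median of 0.231 (0.025 over all genes). A limma test of the change in the difference between batches, added after seeing the data, gave 0 members at adjusted p under 0.05 (smallest 0.344), where 1 of all genes passed (0.0078%). Scan batch 1 holds KO replicate 1 alone of its genotype, so that array and the batch cannot be told apart here, and its spread is taken to be that of the other arrays. At an unadjusted p under 0.05, 9 members had a larger difference in scan batch 2 (12.3%, against 9.16%) and 2 a smaller one (2.74%, against 3.43%). Among the 9, chosen after their values were seen, were Mrpl9, with -0.55 in scan batch 1 and 0.21 in scan batch 2, and Mrps33, with -0.15 and 0.58. Between the batches themselves, 0 genes passed (limma); 24 of 73 members stood higher in scan batch 2 (32.9%, against 50.5%), with a median of -0.037, and 5 had an unadjusted p under 0.05 (6.85%, against 13.3%).

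**Figure D3:**
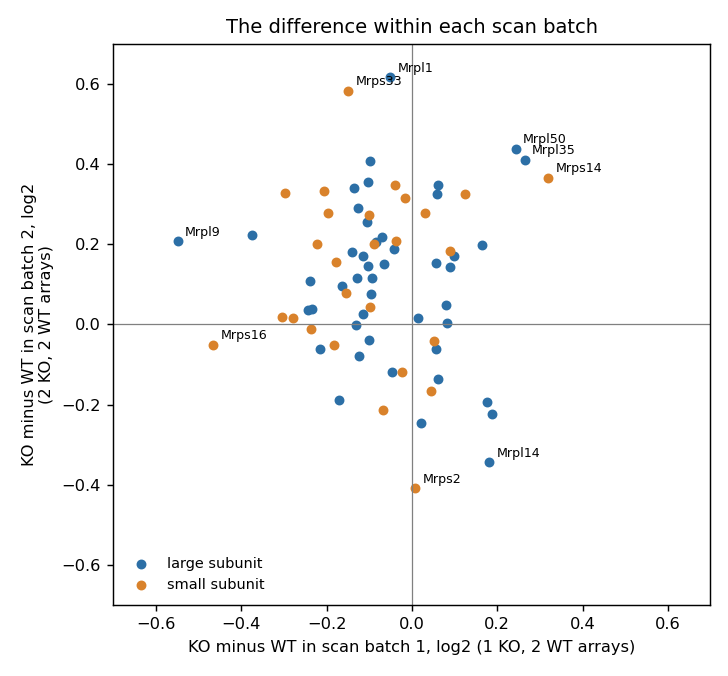
KO minus WT difference of each member on the log2 scale in scan batch 1 (horizontal axis, 1 KO and 2 WT arrays) against scan batch 2 (vertical axis, 2 KO and 2 WT arrays). The area at the upper left, negative in scan batch 1 and positive in scan batch 2, holds 38 of 73 genes, and Mrps14, Mrpl50 and Mrpl35 lie at the upper right.

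Among proteins of the small subunit with a bacterial counterpart, Mrps14 stood out. It encodes the counterpart of bacterial S14, a protein of the head of the small subunit. Its log2 level was 9.67, 9.66, 9.44 and 9.48 in WT replicates 1 to 4 and 9.98, 9.84 and 9.82 in KO replicates 1 to 3. Every KO array lay above every WT array, and in each scan batch the KO arrays were higher, by 0.32 in scan batch 1 and 0.37 in scan batch 2. KO minus WT came to 0.35 (SE 0.07; limma, adjusted p = 0.329), and the exact permutation p was 0.0286. With 1 array left out it stayed between 0.33 and 0.37. Of its other probe sets, 1 passed the level filter and differed by 0.047 (SE 0.10). The third, at a mean of 4.24, lay below the filter and differed by -0.047 (SE 0.04).

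Mrps16 and Mrps2 read lower in KO. Mrps16, the counterpart of bacterial S16, was 8.29, 8.34, 8.37 and 8.32 in WT, against 7.85, 8.29 and 8.29 in KO. KO replicate 1 alone stood apart, and the difference of -0.22 (SE 0.11) was -0.05 without it (limma, adjusted p = 0.464 with all arrays). Mrps2, the counterpart of bacterial S2, was 10.17, 9.78, 10.32 and 10.02 in WT, against 9.99, 9.69 and 9.84 in KO, and the groups overlapped. Its difference was -0.24 (SE 0.14), near 0 in scan batch 1 (0.008) and -0.41 in scan batch 2. Its other probe set went the other way, by 0.26 (SE 0.16), with 8.50, 8.48, 8.12 and 7.78 in WT, against 8.37, 8.37 and 8.58 in KO. The probe sets of Mrps2 gave no common direction.

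The remaining conserved small-subunit proteins overlapped between the groups. Mrps11 and Mrps7, counterparts of S11 and S7 of the small subunit, differed by -0.16 (SE 0.09) and -0.10 (SE 0.08). Mrps12, the counterpart of the S12 protein of the decoding centre, read 9.13, 9.09, 9.06 and 8.96 in WT, against 8.96, 9.06 and 9.11 in KO, a difference of -0.016 (SE 0.087). It was -0.16 in scan batch 1 and 0.078 in scan batch 2. Over the 14 conserved members of the small subunit 6 were positive, with a median of -0.010.

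Of the bacterial S18 relatives, Mrps18a and Mrps18b were measured; both proteins occupy sites of their own in the mitochondrial ribosome. Mrps18a read 9.50, 9.21, 9.41 and 9.05 in WT, against 9.12, 9.22 and 9.23 in KO, and differed by -0.10 (SE 0.12). Mrps18b read 9.76, 9.85, 9.82 and 9.64 in WT, against 9.70, 9.81 and 9.73 in KO, and differed by -0.013 (SE 0.082). Neither separated the groups, and WT replicate 4 was the lowest array for both.

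**Figure D4:**
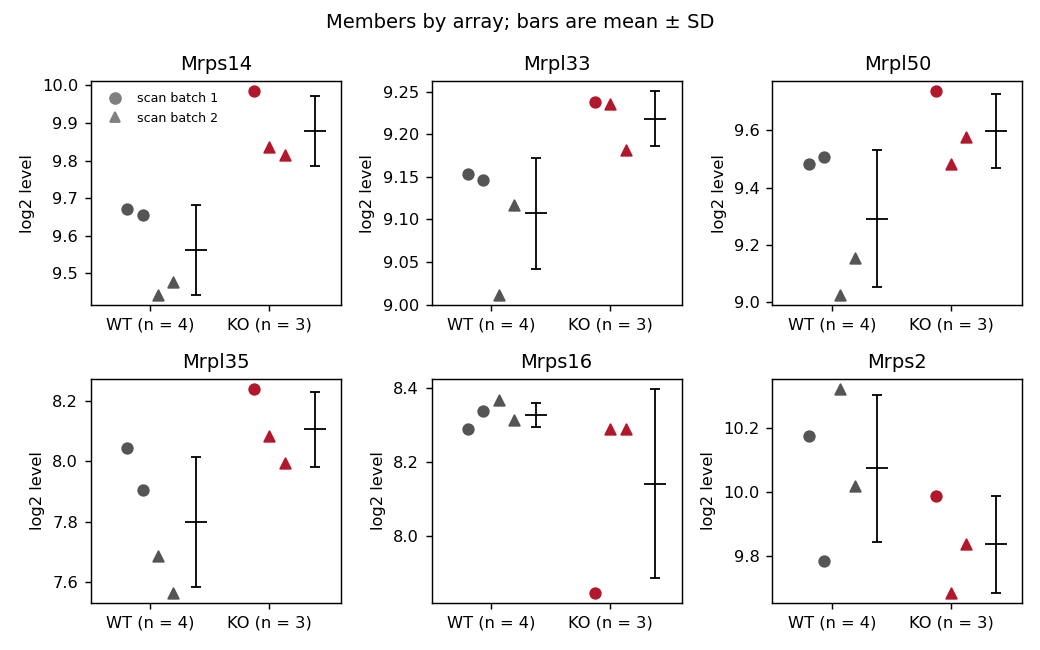
Log2 level (vertical axis, its own scale in each panel) of 6 members in the 4 WT arrays (grey) and 3 KO arrays (red), with circles for scan batch 1, triangles for scan batch 2 and bars at the mean ± SD. In Mrps14 and Mrpl33 the KO arrays lie above all WT arrays, and in Mrps16 KO replicate 1, at 7.85, lies apart.

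The mitochondria-specific proteins of the small subunit had 9 of 12 differences positive, with a median of 0.086, and none reached an unadjusted p under 0.05. In WT replicate 4, 0 of these 12 genes lay above their own mean and in KO replicate 1 only 1 did. Mrps30 keeps a small-subunit name although its protein, a relative of that of Mrpl37, is part of the large subunit. It read 6.98, 6.96, 6.74 and 6.61 in WT, against 6.95, 7.00 and 6.98 in KO. Only the WT arrays of scan batch 2 were low, and the difference of 0.18 (SE 0.09) was -0.015 in scan batch 1 and 0.315 in scan batch 2. Mrpl37 read 7.44, 7.32, 7.59 and 7.28 in WT, against 7.56, 7.26 and 7.22 in KO, a difference of -0.046 (SE 0.117). Counting Mrps30 and Mrps18a, whose proteins sit in the large subunit, with that subunit left the medians at 0.034 and 0.031.

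In the large subunit the higher-reading members were led by Mrpl50 and Mrpl35. Mrpl50, a mitochondria-specific protein, was 9.48, 9.51, 9.02 and 9.16 in WT, against 9.74, 9.48 and 9.58 in KO. KO replicate 2 lay within the WT range, and the difference was 0.36 (SE 0.08; limma, adjusted p = 0.366), with 0.24 in scan batch 1 and 0.44 in scan batch 2. Mrpl35, the counterpart of bacterial L35, was 8.04, 7.90, 7.69 and 7.57 in WT, against 8.24, 8.08 and 7.99 in KO. WT replicate 1 overlapped KO replicate 3, and the difference was 0.35 (SE 0.09; limma, adjusted p = 0.388), 0.26 and 0.41 within the batches. The other probe set of Mrpl50 differed by 0.065 (SE 0.09). The other 2 of Mrpl35 lay below the level filter, at means of 4.76 and 5.06, and differed by 0.007 (SE 0.07) and 0.012 (SE 0.06).

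Mrpl1 and Mrpl18 had larger differences in scan batch 2. Mrpl1, the counterpart of the L1 protein that forms a mobile stalk beside the exit of spent tRNA, was 8.19, 8.29, 7.75 and 7.56 in WT, against 8.19, 8.23 and 8.32 in KO. The WT arrays of scan batch 2 were low and the other arrays lay between 8.19 and 8.32. Its difference of 0.35 (SE 0.15) was thus -0.051 in scan batch 1 and 0.62 in scan batch 2. Its other 2 probe sets had the opposite sign. The one above the level filter differed by -0.028 (SE 0.08) and the one below it by -0.041 (SE 0.04). Mrpl18, whose bacterial counterpart binds 5S rRNA, was 9.68, 9.79, 9.44 and 9.40 in WT, against 9.79, 9.72 and 9.78 in KO. It differed by 0.22 (SE 0.09), 0.058 and 0.33 within the batches. Mrpl55, counted here with the mitochondria-specific proteins, differed by 0.18 (SE 0.08), with 0.16 and 0.20 within the batches.

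Mrpl33 and Mrpl16 also separated the genotypes, by less. Mrpl33, the counterpart of bacterial L33, was 9.15, 9.15, 9.01 and 9.12 in WT, against 9.24, 9.24 and 9.18 in KO, a difference of 0.12 (SE 0.08; limma, adjusted p = 0.547). Its exact permutation p was 0.0286. Mrpl33 and Mrpl16 were named for their lack of overlap, which already makes such a p small, so it adds no support. The other probe set of Mrpl33 lay below the level filter, at a mean of 4.58, and differed by -0.037 (SE 0.05). Mrpl16, the counterpart of bacterial L16 near the peptidyl transferase centre, was 9.77, 9.67, 9.73 and 9.77 in WT, against 9.80, 9.77 and 9.82 in KO, a difference of 0.061 (SE 0.069), with an exact permutation p of 0.0857. With Mrps14, 3 members (4.11%) had all KO arrays above all WT arrays, against 2.68% of all genes, and 0 had all below, against 3.23%.

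The stalk that recruits translation factors is built on Mrpl11, Mrpl10 and Mrpl12, counterparts of bacterial L11, L10 and L7/L12. Mrpl11 was 10.44, 10.63, 10.23 and 10.36 in WT, against 10.60, 10.60 and 10.69 in KO. WT replicate 2 lay among the KO arrays, and the difference was 0.23 (SE 0.09; limma, adjusted p = 0.414), with 0.061 and 0.35 within the batches. All 4 of its probe sets had a positive difference, from 0.10 to 0.24. Mrpl12, which also binds the mitochondrial RNA polymerase, was 9.00, 9.00, 8.93 and 8.77 in WT, with 8.96, 9.07 and 9.00 in KO, and differed by 0.096 (SE 0.090). Mrpl10 differed by -0.057 (SE 0.086). Of these 3 genes, 2 had a positive difference and 1 a negative one.

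Around the tunnel through which the new protein leaves, Mrpl23, Mrpl24 and Mrpl44 differed by 0.007 (SE 0.088), -0.053 (SE 0.065) and 0.053 (SE 0.104). Mrpl24 was among the steadiest members, with 10.14, 10.12, 10.07 and 10.07 in WT, against 10.00, 10.07 and 10.07 in KO. For Mrpl44, a relative of ribonuclease III, the 2 probe sets disagreed in size. The one used read 8.05, 8.25, 8.07 and 8.15 in WT, against 8.01, 8.28 and 8.31 in KO. The other read 8.14, 8.40, 7.40 and 7.69 in WT, against 8.25, 8.56 and 8.61 in KO, with a difference of 0.62 (SE 0.21).

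Lower-reading members of the large subunit had small differences. Mrpl38, a mitochondria-specific protein of the central protuberance, was 9.43, 8.96, 9.20 and 8.99 in WT, against 9.02, 8.95 and 8.87 in KO, a difference of -0.18 (SE 0.12) that was -0.17 and -0.19 within the batches. All 3 of its probe sets were negative. Mrpl58, a peptidyl-tRNA hydrolase that releases stalled chains, differed by -0.14 (SE 0.10) in the probe set used, and its other probe set lay below the level filter. Mrpl28 and Mrpl4, counterparts of bacterial L28 and L4, differed by -0.12 (SE 0.08) and -0.098 (SE 0.075). For Mrpl28 the other probe set had the opposite sign, at 0.13.

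Probe sets of the same member did not always share a sign. Of 129 probe sets 118 passed the level filter and 11 did not. Among the 30 members with several probe sets above it, 15 had differences of both signs. The same share over all genes was not computed. Some of these differences lay well within their SE, as in Mrpl34 (0.017, SE 0.095, and -0.023, SE 0.093). Others did not, as in Mrps2 (-0.24, SE 0.14, and 0.26, SE 0.16). The 46 members outside the 27 named by rule had differences from -0.13 to 0.29, with 29 positive and 17 negative, and unadjusted p of 0.102 and above. Over all named members and alternatives the lowest adjusted p was 0.0269, reached with array weights. That fit gave KO replicate 2 a weight of 3.04 and KO replicate 1 one of 0.297, and called 8 members (10.96%, against 10.7% of all genes). Mrps14, Mrpl50, Mrpl11, Mrpl35, Mrpl1, Mrps33 and Mrpl18 were the 7 higher in KO and Mrps2 the 1 lower. The share of members called was near that of all genes.

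In the other parts of the mitochondrial translation system no gene passed the test either. Of 4 further mitoribosomal proteins, Chchd1 differed by 0.23 (SE 0.12) and Ptcd3 by -0.16 (SE 0.09), while Dap3 and Gadd45gip1 were at 0.041 and -0.007. Of 23 genes for assembly of the ribosome and modification of its RNA, 11 were positive. At an unadjusted p under 0.05 (limma), 2 were higher (8.70%, against 7.14% of all genes). They were Fastkd2 (0.42, SE 0.12), which binds mitochondrial ribosomal RNA, and the pseudouridine synthase Trub2 (0.26, SE 0.11). Of 10 translation factors 7 were positive. Oxa1l, the insertase that takes new chains into the inner membrane, differed by -0.19 (SE 0.07). It was the 1 factor lower at an unadjusted p under 0.05 (limma), where 4.26% of all genes were lower. Its groups did not overlap, and 3.23% of all genes had all KO arrays below all WT arrays. Among 17 mitochondrial aminoacyl-tRNA synthetases and related genes 7 were positive, with Qrsl1, of the glutamine transamidation complex, at 0.55 (SE 0.20) and the cysteinyl-tRNA synthetase Cars2 at -0.31 (SE 0.13). Of 13 genes of mitochondrial DNA expression 8 were positive. Polg2, the accessory subunit of the mitochondrial DNA polymerase, was higher by 0.30 (SE 0.09). It was the 1 gene of the 13 with all KO arrays above all WT arrays (7.69%, against 2.68% of all genes).

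WT replicate 4 had the lowest mean of all arrays in the assembly genes (-0.122), translation factors (-0.145), synthetases (-0.099) and DNA expression genes (-0.131), as in the respiratory chain (-0.074) and the list of general mitochondrial proteins (-0.090). Over all genes tested its mean was -0.030, also the lowest. The respiratory chain, which uses the products of this ribosome, had 57 of 78 genes positive and a median of 0.081. At an unadjusted p under 0.05 (limma), 14 were higher (17.9%, against 7.14% of all genes) and 1 lower (against 4.26%). In the cytosolic ribosomal proteins 27 of 68 were positive and the median was -0.009. At that threshold 1 was higher (1.47%, against 7.14% of all genes) and 3 were lower, where 4.26% of all genes were lower. Regulators of the nuclear genes for mitochondria gave no separation: Yy1 differed by 0.19 (SE 0.16), Gabpb1 by 0.069 (SE 0.084), Gabpa by 0.029 (SE 0.071) and Myc by -0.085 (SE 0.109). Of 15 proliferation genes 7 were positive, with a median of -0.035.

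**Figure D5:**
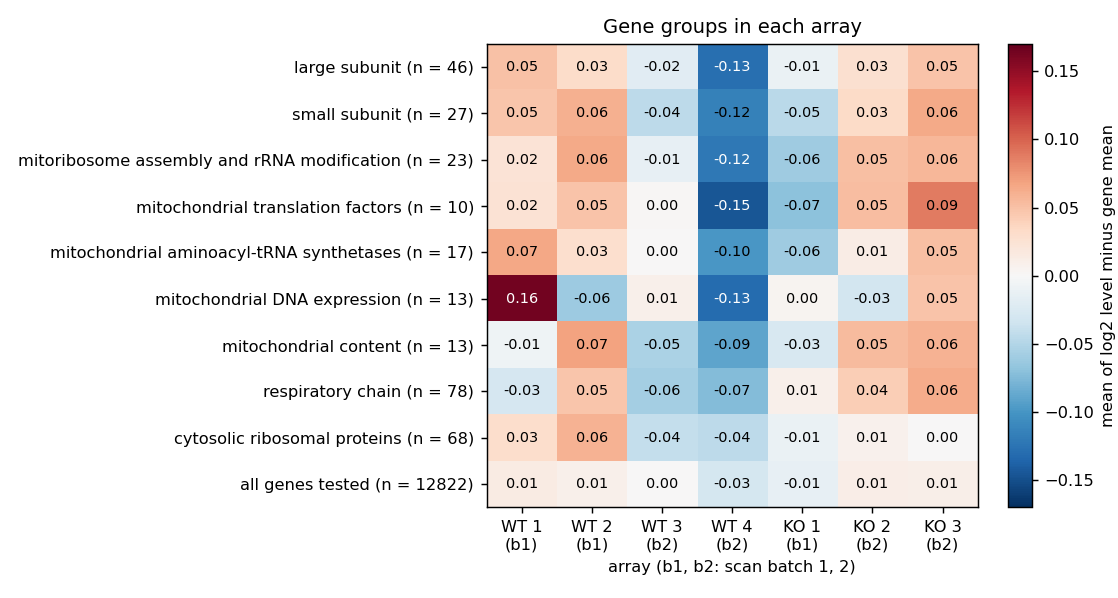
Mean of each gene group (rows, with the number of genes tested) in each array (columns), as log2 level minus gene mean; red is above and blue below the average of the arrays, and cells print the means. The column of WT replicate 4 is blue in every row, at -0.128 for the large subunit and -0.030 for all genes tested.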

How the data were processed

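Expression was measured on 7 Affymetrix arrays (4 WT, 3 KO). The authors deposited 1 log2 level for each probe set and array. RMA, which corrects background, normalizes arrays and summarizes probes, is named in the submitters' processing notes, and its version and any batch correction were not stated there. Depth does not apply, and the number of arrays limits the precision. Of 45141 probe sets, 28898 had 1 symbol in the platform annotation, 551 several and 15588 none, beside 104 controls; 6 probe sets of Mrps6 or Mrps25 that name a second gene were left out. RefSeq gene numbers matched 28689 and updated 0 symbols. Each gene was represented by its probe set of highest mean; genes in the lowest 25% of mean level (5.28) were left out, and 73 of 73 members passed. Ties between arrays, which RMA can produce, occurred in 23 members.

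KO was compared with WT in limma 3.58.1 (R 4.3.3) with lmFit, eBayes with trend, and scan batch as a covariate. Tests were two-sided, and p was adjusted by Benjamini-Hochberg over 12822 genes, called at 0.05, leaving 4 residual degrees of freedom. The script was tested on simulated data. Differences come from that fit, group values from the arrays. Members, lists and tests were chosen with earlier results of these data known. Named members are the 8 of smallest p in each direction, those without overlap, and members fixed by role. Motifs were searched by exact match with Python 3.11.15. Alternatives concerned batch, probe set, level filter, scaling, weights, trend, the Gapdh covariate and each array. Protein sequences were not used here.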

Additional observations from a re-analysis of the deposited data

How the results depend on the processing

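No paired analysis was made, because no label says that WT and KO arrays of the same replicate number form a pair. The count of 0 members called held in every alternative except array weights, which called 8 members and 1370 genes. Over all genes 2 were called without WT replicate 2 or WT replicate 4 (0 to 2 over all 7 arrays left out), 2 also without WT replicate 4 and no term for scan batch, and 1 without WT replicate 4 and KO replicate 1 and no such term. Of the 27 named members 15 kept their sign in all alternatives and 12 did not. Settings without WT replicate 4 or KO replicate 1 and no term for scan batch were added after seeing the data. With the batch term kept, leaving out KO replicate 1 gives the differences of scan batch 2 alone. Those settings are therefore not separate checks of sign or size. The median SE of a member's difference, 0.098, sets the precision 7 arrays allow.

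Members higher at an unadjusted p under 0.05 numbered 4 with no term for scan batch (5.48%, against 4.09% of all genes), 18 in scan batch 2 (24.7%, against 15.3%), 0 in scan batch 1 (against 1.29%), 20 with array weights (27.4%, against 17.3%), 3 with the Gapdh covariate (4.11%, against 3.95%), and 3 to 18 with 1 array left out (all genes 3.37 to 13.4%). They numbered 1 without WT replicate 4 and no batch term (1.37%, against 1.98%), 4 without KO replicate 1 and no batch term (5.48%, against 4.70%), and 1 without both (1.37%, against 2.71%). Members lower numbered 4 in scan batch 2 (5.48%, against 9.05%), 3 in scan batch 1 (4.11%, against 2.11%), 1 with probe sets averaged (1.37%, against 4.19%), 1 with quantile normalization (1.37%, against 5.72%), 6 with array weights (8.22%, against 14.4%), 3 with the Gapdh covariate (4.11%, against 3.91%) and 0 to 2 with 1 array left out (all genes 2.14 to 7.63%). Positive members numbered 24 in scan batch 1 and 36 to 53 with 1 array left out.

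The median was 0.147 in scan batch 2 (large 0.130, small 0.182) and -0.094 in scan batch 1 (-0.089, -0.098). With array weights the small subunit was at 0.126. With 1 array left out the members' median ran from -0.0049 to 0.147 (large -0.0061 to 0.130, small -0.0049 to 0.182). The upper values are those without KO replicate 1, and so those of scan batch 2. With arrays centred on their medians the members' median was 0.044 and with quantile normalization 0.016.

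Turned signs were, in scan batch 1, Mrpl1 (-0.051), Mrps30 (-0.015), Mrps2 (0.0083), Mrpl58 (0.020), Mrpl10 (0.061), Mrpl12 (-0.043), Mrpl23 (-0.097), Mrpl44 (-0.14) and Mrpl37 (0.18); in scan batch 2, Mrps18b (0.044) and Mrps12 (0.078). With the probe set of largest variance Mrps2 was 0.26 and Mrpl28 0.13, and with probe sets averaged 0.011 and 0.0011. With the Gapdh covariate Mrpl23 was -0.078, Mrpl44 -0.093 and Mrpl37 0.095. Mrpl23 was -0.021 with quantile normalization and -0.0028 with array weights, where Mrps12 was 0.013. Without KO replicate 1 and a batch term Mrps18b was 0.0061 and Mrps12 0.026, and without WT replicate 4 and a batch term Mrpl23 was -0.031. With 1 array left out the ranges were -0.072 to 0.044 (Mrps18b), -0.051 to 0.077 (Mrpl23), -4.5e-06 to 0.18 (Mrpl44), -0.064 to 0.078 (Mrps12) and -0.19 to 0.069 (Mrpl37). The cause of these changes was not tested. The shares of promoters with each motif stayed within their intervals in the shorter window.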
